A study of Danio rerio with 6 samples.

Results

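Of the 71293 open-chromatin regions formed by merging the peaks of 6 ATAC-seq libraries from zebrafish heart muscle cells, 588 held a peak of all 3 control libraries and of no library that overexpressed wt1b. These control-only regions made up 0.825% of all regions. They made up 17.0% of the 3453 regions that all 3 control libraries shared. Of the other shared regions, 786 also held a peak of 1 wt1b library, 792 of 2 wt1b libraries and 1287 of all 3. The control-only regions were chosen by the presence of control peaks and the absence of wt1b peaks, so these counts describe the choice and carry no test.

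In ATAC-seq the transposase Tn5 inserts sequencing adapters into DNA that is not covered by nucleosomes, and peaks mark places where such insertions pile up, typically promoters, enhancers and insulators. WT1 is a zinc-finger transcription factor needed for the epicardium, the outer layer of the heart, and it can both activate and repress genes. The gene wt1b is one of the zebrafish genes for this factor, and mature heart muscle cells normally hold little of it. The comparison asked which accessible sites of heart muscle cells were no longer called when wt1b was forced on in them.

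All larvae were of strain AB and 5 days old after fertilisation. Both lines carried the driver Tg(myl7:Gal4)cbg2Tg, in which the myl7 promoter of heart muscle produces the yeast activator Gal4. Control larvae carried in addition the responder Tg(eGFP:5xUAS:RFP; gcryst:cerulean)cn15, and wt1b larvae carried in its place the responder Tg(eGFP:5xUAS:wt1b; gcryst:cerulean)cn15. Gal4 binds the UAS sites of the responder, which lie between eGFP and either RFP, a red fluorescent protein, or wt1b. The marker gcryst:cerulean was common to both responders, and the labels give both the same allele number. GFP-positive cells were sorted and labelled as cardiomyocytes, and 3 libraries were made per line. Whether libraries came from separate clutches or pooled larvae is not given in the sources used here, and the cell type was not checked, since gene positions in these coordinates were not used here.

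The peak lists differed widely in length. Control replicates 1, 2 and 3 held 29887, 29561 and 23334 peaks on chromosomes 1 to 25. The wt1b replicates 1, 2 and 3 held 9310, 4122 and 4091 peaks. Every control list was longer than every wt1b list, and the read depth behind the lists is unknown. Control replicate 1 shared the smallest part of its peaks: 23.1% lay in a region with a peak of another control list, against 31.3% in control replicate 2 and 36.8% in control replicate 3. Leaving out any library loosens the definition. Without control replicate 1, 2376 regions were called in both other controls and in no wt1b list, which was 35.0% of the 6781 regions those controls shared. The count was 1489 without control replicate 2 (31.2% of 4765) and 1733 without control replicate 3 (34.0% of 5097). Without wt1b replicate 1, the longest wt1b list, 1221 control-only regions were called, or 35.4% of 3451.

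The longest of the wt1b lists, that of replicate 1, met the most shared regions. Of the 3453 regions shared by the controls, 77.2% held a peak of wt1b replicate 1, 51.1% of wt1b replicate 2 and 52.2% of wt1b replicate 3. Of the 786 regions that held a peak of a single wt1b library, 631 (80.3%) owed it to wt1b replicate 1. Every control list was longer than every wt1b list, so list length cannot be told apart from group here. The membership is therefore described below by the strength of the control peaks.

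Control-only regions were of middling strength in the control lists. Each peak was given a strength percentile, its place in its own list when ordered by the authors' score and then by width, with the strongest peak at 100. The peaks of control-only regions had a median percentile of 69.5 in control replicate 1 (626 peaks), 70.0 in control replicate 2 (627 peaks) and 67.2 in control replicate 3 (615 peaks). They lay above the other control peaks outside shared regions, whose medians were 45.5, 44.7 and 44.0. They lay below the peaks of regions called in all 6 lists, whose medians were 92.3, 92.9 and 92.7. The values of the 3 control libraries did not overlap between these classes. Peaks outside shared regions were by definition not called in all 3 control lists. The choice itself thus bears on the comparison with them, which is given as a description.

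The strength rose with the number of wt1b lists that held the region. The mean over control libraries was 68.9 ± 1.49 (SD, n = 3) for control-only regions, 77.2 ± 3.19 for regions in 1 wt1b list, 84.6 ± 2.59 for regions in 2 and 92.6 ± 0.306 for regions in all 3. The difference between control-only regions and regions of all 6 lists was -23.8 ± 1.48 percentile points (SD, n = 3), lower in 3 of 3 control libraries. By an exact two-sided sign-flip test over the 3 libraries p was 0.25, which is the lower limit of this design. Against regions in 1 wt1b list the difference was -8.35 ± 3.52 points (SD, n = 3), again lower in all 3 control libraries (exact sign-flip p = 0.25). The percentiles come from the same control lists that chose the regions. Among peaks of equal score they are set by width, on which the choice by overlap of positions itself bears. The differences are thus a description, and the p-values lend them no support. Without control replicate 1 the first difference was -31.6 points, and without wt1b replicate 1 it was -18.9 points.

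**Figure D1:**
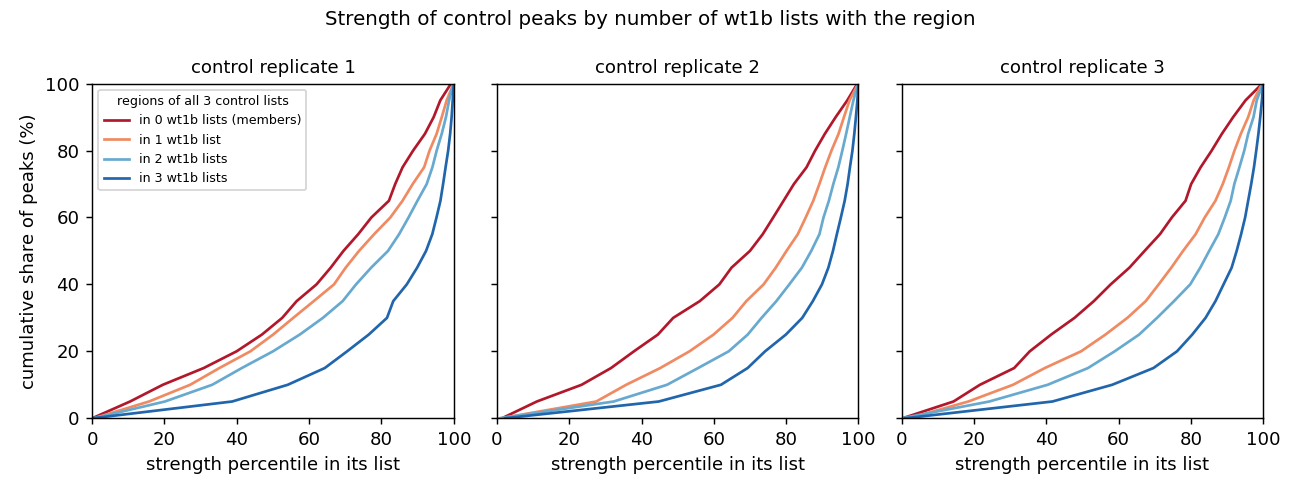
Cumulative share of control peaks (vertical axis, %) against their strength percentile in their own list (horizontal axis, 100 is the strongest peak), in 1 panel per control library. Lines stand for regions of all 3 control lists that were called in 0, 1, 2 or 3 wt1b lists. In each panel the line of control-only regions lies furthest left, with medians of 69.5, 70.0 and 67.2.

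Many control-only regions included a weak peak. The lowest of the 3 control percentiles of a region had a median of 40.4, against 86.6 for regions of all 6 lists. In 355 regions (60.4%) at least 1 control list held the region only in its weaker 50%, compared with 12.2% of the regions of all 6 lists. Counted by peaks, 28.0%, 30.9% and 32.0% of control-only peaks lay in the weaker 50% of control lists 1, 2 and 3. For regions in 1 wt1b list these shares were 25.0%, 17.7% and 20.7%. The weakest call fell in control replicate 1 for 175 regions, in control replicate 2 for 198 and in control replicate 3 for 215. The weak calls were thus spread over the 3 lists.

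The authors' score stops at 1000, and this limit was reached in all 3 control lists by 78 control-only regions (13.3%), in 2 lists by 161, in 1 list by 210 and in none by 139. Among peaks of the control-only regions, 37.4%, 55.2% and 38.7% were at the limit in control replicates 1, 2 and 3. These shares were 42.7%, 70.3% and 52.9% in regions in 1 wt1b list, and 71.0%, 88.7% and 80.0% in regions of all 6 lists. For a peak under the limit, score times width divided by 1000 gives an area, and no list held such a peak with an area under 199.8. In 216 control-only regions (36.7%) the strongest peak of at least 1 control list had an area below 250, close to this lower edge. The same held for 26.2% of the regions in 1 wt1b list, 13.3% of those in 2, 5.28% of those in all 3 and 17.2% of all shared regions.

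The share of control-only regions fell with strength. The 3453 shared regions were divided into 10 classes of equal size by their mean percentile over the control lists. In class 1, the weakest, 160 of 346 regions (46.2%, exact 95% interval 40.9% to 51.7%) had no wt1b peak. The share was 19.1% (15.1% to 23.6%) in class 5. It was 4.35% (2.45% to 7.07%) in class 8 and 1.45% (0.472% to 3.35%) in class 9, with 5 regions. In class 10 no region of 346 was control-only (0% to 1.06%), and 88.7% were called in all 6 lists. Only from class 4 to class 5 did the share rise, from 17.7% to 19.1%. These intervals cover counting error only. Leaving out a library, after which more regions were control-only, moved the class 1 share to between 49.1% (without wt1b replicate 3) and 77.1% (without control replicate 3). It was 71.3% without control replicate 1, 70.9% without control replicate 2 and 73.4% without wt1b replicate 1. The class 10 share then ran from 0% to 2.61%, the highest being without wt1b replicate 1. With peaks ordered by score times width the share was 44.8% in class 1 and 0.289% in class 10, where 1 region remained.

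**Figure D2:**
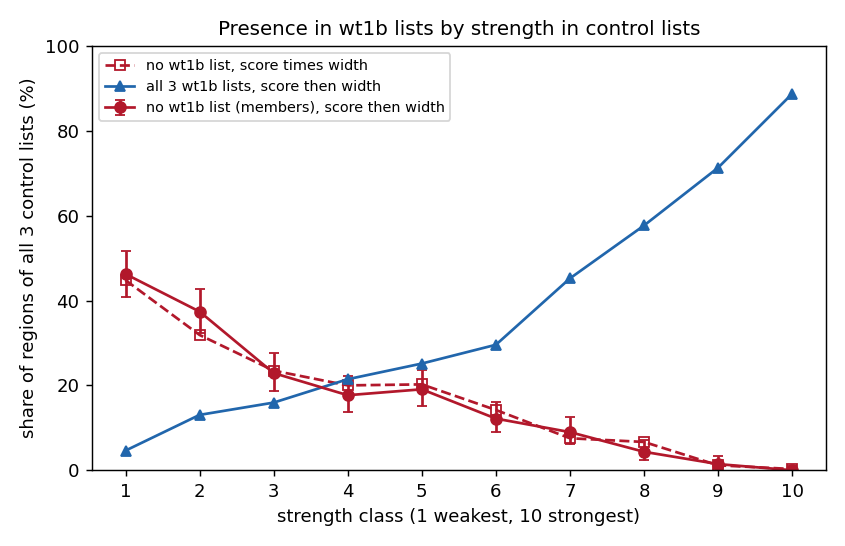
Share of regions of all 3 control lists (vertical axis, %) in 10 classes of equal size by mean strength percentile in the control lists (horizontal axis, 1 weakest). Filled circles are control-only regions with exact 95% intervals of counting error, open squares are the same with peaks ordered by score times width, and triangles are regions called in all 3 wt1b lists. The control-only share falls from 46.2% to 0%, while the share called in all 3 wt1b lists reaches 88.7%.

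Shortening the control lists while the wt1b lists stayed in full removed most control-only regions. With the strongest 9310 peaks of each control list, the length of the longest wt1b list, 1756 regions were shared by the controls and 128 of them (7.29%) had no wt1b peak. With 4091 peaks per control list, as many as in the shortest wt1b list, 939 regions were shared and 16 (1.70%) had no wt1b peak. At 15000 peaks the count was 255 of 2437 (10.5%). In the full lists, 16 and 128 control-only regions had all 3 control peaks inside the respective limit, and 16 and 128 of the regions left by the cuts overlapped them. Because the wt1b lists stayed in full, the fall in number and this match follow almost wholly from the way of cutting and add no support. The fall in share restates the fall with strength described above. At least 1 control peak was among the strongest 4091 of its list in 328 control-only regions (55.8%). In 500 (85.0%) at least 1 was among the strongest 9310. These counts take the best of 3 lists, and the shares for the other shared regions are not given here. When the wt1b lists were cut too, so that all lists held 4091 peaks, 47 of 939 shared regions (5.01%) were control-only. When the stronger 50% of each list was kept, 490 of 2318 shared regions (21.1%) were control-only.

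**Figure D3:**
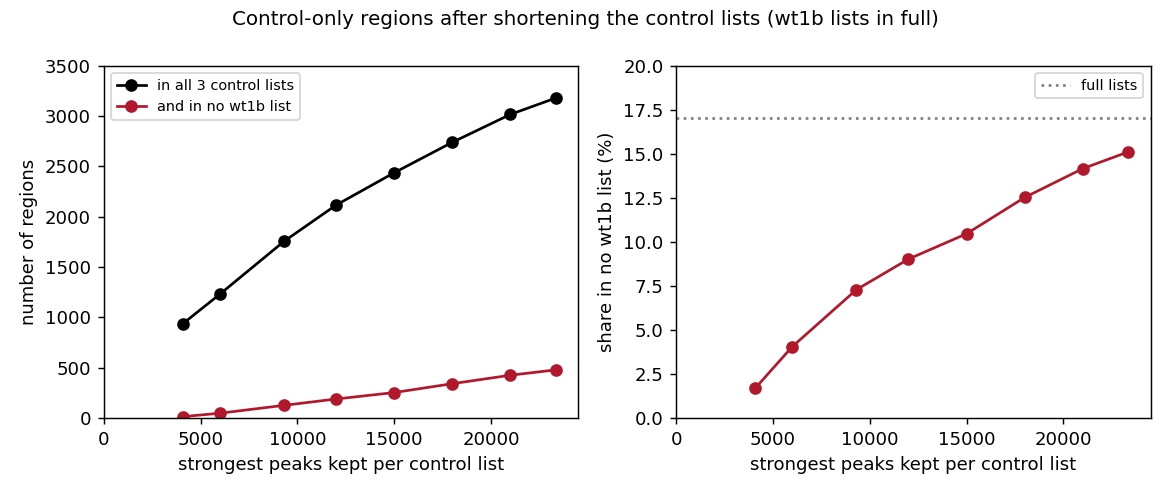
Number of regions shared by the controls and of control-only regions (left, vertical axis) and the control-only share (right, vertical axis, %) when only the strongest peaks of each control list were kept (horizontal axis) and the wt1b lists stayed in full. The share rises with list length from 1.70% at 4091 peaks to 15.1% at 23334 peaks, and the dotted line marks the 17.0% of the full lists.

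The strongest control-only regions were named by the highest value of their lowest control percentile. Positions count from 1, and the submitters' processing notes name the build GRCz11, also known as danRer11. The top region lay on chromosome 24 from 42072727 to 42073307. Its peaks ranked 1067 in control replicate 1, 1596 in control replicate 2 and 1379 in control replicate 3, with widths of 485, 581 and 575 bp, and all had the limiting score. The 3 peak centres lay within 27 bp of each other, and the nearest wt1b peak, of wt1b replicate 1, was 464 bp away. When peaks within 500 bp of each other were merged, this region thus gained a wt1b peak.

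The region ranked next lay on chromosome 23 from 33491521 to 33492069. Its control peaks ranked 1025, 1928 and 1569 and were 494, 540 and 541 bp wide. All 3 shared 494 bp, and the nearest wt1b peak was 94.8 kb away. The third lay on chromosome 3 from 52267357 to 52267986, with ranks of 901, 1522 and 2082 and the nearest wt1b peak at 174 kb. Both regions were therefore strong and far from any wt1b peak. Their peak centres spread over 22 bp on chromosome 23 and over 101.5 bp on chromosome 3, where all 3 peaks shared 427 bp.

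Of the other 7 of the strongest 10, the region on chromosome 13 from 3973475 to 3974060 ranked 2184, 2884 and 1453 in the 3 control lists. The region on chromosome 3 from 13389571 to 13390110 ranked 1722, 2901 and 2081. The remaining 5 were the regions at 16755084 to 16755720 of chromosome 17, at 4346617 to 4347122 of chromosome 24, at 319449 to 320084 of chromosome 11, at 70365624 to 70366442 of chromosome 4, and at 11223300 to 11223937 of chromosome 5. Each of the 10 had the limiting score in all 3 control lists, so that their order rests on peak width. Their lowest percentiles ran from 86.2 to 94.1. Besides the top region, the one on chromosome 11 had a wt1b peak within 10 kb, at 4.05 kb.

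Peaks of control-only regions were about as wide as ordinary control peaks and narrower than those of widely shared regions. Their median width was 383 bp in control replicate 1, 376 bp in control replicate 2 and 453 bp in control replicate 3. Control peaks outside shared regions had medians of 410, 359 and 453 bp in the same libraries. Peaks of the regions in all 6 lists had medians of 482.5, 552.5 and 617.5 bp. The difference from regions of all 6 lists was -147 ± 41.4 bp (SD, n = 3), and that from regions in 1 wt1b list was -30.7 ± 3.51 bp (SD, n = 3). Regions were chosen by overlap of peak positions, and a wider control peak meets a wt1b peak more readily, so the choice itself bears on width and these differences are given as a description. Width also orders peaks at the score limit, so width and percentile are not separate measures. In class 5 of strength the median control peak width was 320 bp for control-only regions and 521 bp for regions of all 6 lists, and in class 7 it was 329 and 438.5 bp. The median was lower for control-only regions in each of the 8 classes with at least 15 regions of both kinds.

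Merged control-only regions had a median width of 662 bp, from 175 to 2006 bp. In 507 (86.2%) each control list contributed 1 peak, and 81 held more. The bases covered by peaks of all 3 lists had a median of 224 bp. In 42 regions (7.14%) no base was covered by all 3 controls, so that peaks were joined only through another peak, against 1.40% of the regions of all 6 lists. Requiring such a shared base left 546 control-only regions. The centres of the control peaks spread over a median of 174 bp, against 143.75 bp for regions in 1 wt1b list, 158.75 bp for those in 2 and 173.5 bp for those in all 3. These medians mix strengths. In strength class 5 the spread was 85.25 bp for control-only regions and 152.5 bp for regions of all 6 lists. It was smaller for control-only regions in classes 2 to 7 and larger in class 1 (245.75 against 239.75 bp) and class 8 (191 against 161.5 bp). Control-only peaks were also narrower in each of these classes (320 against 521 bp in class 5). The centres of narrower overlapping peaks have less room to spread, so the spread does not measure how well peaks line up. Spread in proportion to peak width was not computed.

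The widest control-only regions were mostly of this loosely joined kind. The widest lay on chromosome 15 from 19087679 to 19089684, where the peaks of control replicates 1, 2 and 3 were 2006, 812 and 309 bp wide and their percentiles were 71.5, 8.48 and 75.0. A peak of wt1b replicate 3 began 26 bp outside it, the smallest distance of all control-only regions. The regions at 10305917 to 10307850 of chromosome 8, at 16756577 to 16758383 of chromosome 5, and at 17729356 to 17730925 of chromosome 23 had no base common to all 3 controls. The region on chromosome 24 from 2924306 to 2925940 did, with 576 shared bp, and its peak was ranked 63 in control replicate 3, 9558 in control replicate 1 and 17087 in control replicate 2. Its strength thus differed greatly between control libraries.

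At the edge of the definition, the other control-only regions nearest to a wt1b peak lay on chromosome 17 from 32374779 to 32375094, at 78 bp, and on chromosome 13 from 15864267 to 15865172, at 93 bp. Just outside it, the regions of all 3 controls with the smallest overlap with their only wt1b peak were at 14103966 to 14104902 of chromosome 11 (67 bp), at 45709661 to 45710234 of chromosome 20 (127 bp), and at 27822204 to 27823215 of chromosome 23 (131 bp). Another 3820 regions were called in 2 control lists and no wt1b list.

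Most control-only regions did not lie close to a called wt1b peak. Such distances also depend on how few peaks the wt1b lists held, and signal too weak to be called cannot be seen in peak lists. The nearest wt1b peak was at a median of 27.8 kb (interquartile range 7.83 to 73.9 kb), 25 regions had one within 500 bp and 170 (28.9%) within 10 kb. Within 50 kb on either side, 212 control-only regions (36.1%) had no region with a wt1b peak. This held for 26.5% of the regions in 1 wt1b list, 26.3% of those in 2 and 21.0% of those in all 3. The median number of other regions of any kind within 50 kb was 7 in each of these classes. The difference in nearby wt1b peaks was not tested.

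Control-only regions were found on all 25 chromosomes, from 13 on chromosome 25 to 43 on chromosome 7. Their density ran from 2.85 per 10 Mb on chromosome 14 to 6.41 per 10 Mb on chromosome 24, taking the end of the last peak as the chromosome length. To allow for strength, the number given by the control-only shares of the 10 strength classes was computed for each chromosome. Chromosome 7 had 43 control-only regions of 183 shared regions (23.5%, exact 95% interval 17.6% to 30.3%), against 36.0 given by strength. Chromosome 24 had 27 of 126 (21.4%, 14.6% to 29.6%), against 20.1. Chromosome 11 had 25 of 134 (18.7%, 12.5% to 26.3%), against 19.6, a larger ratio (1.27) than on chromosome 7 (1.20). Chromosome 14 had 15 of 121 (12.4%, 7.11% to 19.6%), against 21.7, and chromosome 6 had 18 of 154 (11.7%, 7.08% to 17.8%), against 24.8. These intervals cover counting error only, and the chromosomes were singled out of 25 after their values were seen. The ratio of observed to strength-given numbers ran from 0.691 on chromosome 14 to 1.37 on chromosome 4.

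**Figure D4:**
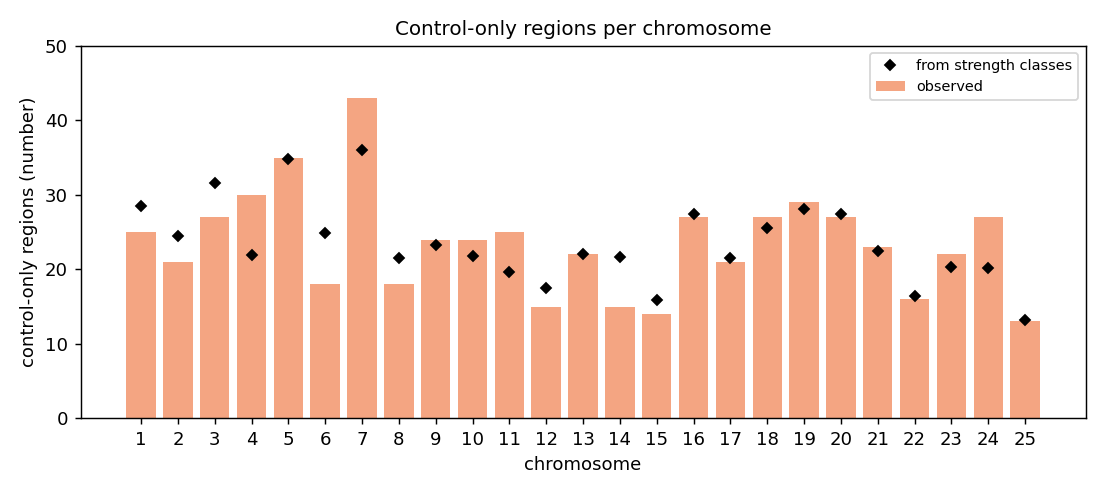
Number of control-only regions (vertical axis) on each of the 25 chromosomes (horizontal axis). Bars are observed numbers and diamonds the numbers given by the control-only shares of the 10 strength classes. Chromosome 7 has 43 against 36.0 and chromosome 4 has 30 against 21.9, while chromosomes 6 and 14 lie below their diamonds.

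The excess on chromosome 4 lay on its long arm, which in zebrafish is rich in repeats and gene copies. Beyond 30 Mb, a position chosen after the values were seen, 16 of 33 shared regions (48.5%, exact 95% interval 30.8% to 66.5%) were control-only, against 7.78 given by strength. Before 30 Mb the count was 14 of 79 (17.7%), against 14.1 given by strength. The share beyond 30 Mb was 61.9% (39 of 63) without control replicate 1, where the share over all chromosomes was 35.0%, and 57.6% (19 of 33) without wt1b replicate 1, where it was 35.4%. The distance to the share over all chromosomes, in proportion, was smaller there than with all 6 libraries, where the shares were 48.5% and 17.0%. Over all peaks, this stretch took 1.08%, 1.08% and 0.866% of the control lists 1, 2 and 3 and 0.623%, 0.970% and 0.831% of the wt1b lists, so the lists of the groups overlapped in this measure. The 16 regions were 269 to 1239 bp wide, and their mean percentiles ran from 25.6 to 92.1. The strongest were those on chromosome 4 from 70365624 to 70366442 and from 35934800 to 35935573, with mean percentiles of 92.1 and 91.1. How reads from repeats were placed is not given in the sources used here, and the part of repeats in this share was not tested. Within 1 Mb of a chromosome end, 67 of 310 shared regions (21.6%) were control-only, against 56.3 given by strength.

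Some control-only regions lay next to each other. For 144 of the 588 (24.5%, exact 95% interval 21.1% to 28.2%), the nearest other shared region was control-only too. Control-only regions made up 17.0% of shared regions, and the strength of these neighbours gave 18.1%. For regions of all 6 lists the nearest shared region was control-only in 14.4%. When neighbours closer than 5 kb were set aside, the share of control-only regions with a control-only neighbour was 21.4% (18.2% to 25.0%), against 18.2% given by strength. It was then 18.1% (15.4% to 20.9%) for regions in 1 wt1b list, 15.8% for those in 2 and 17.3% for regions of all 6 lists. Much of the excess thus came from neighbours within 5 kb. Without control replicate 1 the share was 40.1% beside a control-only share of 35.0%, and without wt1b replicate 1 it was 39.4% beside 35.4%. No test was run, since neighbouring regions share their libraries. The intervals cover counting error only and take regions as independent, although regions nearest to each other are both counted.

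A recurrent arrangement stood behind many close neighbours. In 15 places, 2 control-only regions lay within 1 kb of each other, with a median gap of 119 bp. In 9 of these both regions were under 400 bp wide, 214 to 386 bp, and the gap between them was 92 to 195 bp. On chromosome 19, for example, regions from 24152020 to 24152335 and from 24152438 to 24152760 were separated by 102 bp, with widths of 316 and 323 bp and mean percentiles of 83.2 and 83.5. On the same chromosome, regions from 24841841 to 24842166 and from 24842277 to 24842571 were separated by 110 bp, with mean percentiles of 82.1 and 82.6. On chromosome 11, regions from 19977146 to 19977505 and from 19977598 to 19977951 were separated by 92 bp. The pairs were not all so even: on chromosome 4, regions from 77825011 to 77825396 and from 77825548 to 77825856 were 386 and 309 bp wide, with mean percentiles of 87.4 and 78.1. The median mean percentile over the 9 pairs was 80.8. These 9 were chosen by their width after the values were seen.

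Of the 15 pairs, 4 lay on chromosome 4 beyond 30 Mb, so that the 16 regions there are not 16 separate sites. Pairs of the same class within 1 kb numbered 15 among control-only regions, 9 among regions in 1 wt1b list, 7 among those in 2 and 47 among those in all 3. These were 2.55, 1.15, 0.884 and 3.65 pairs per 100 regions, in classes of 588, 786, 792 and 1287 regions. A larger class offers each region more partners of its own class, so these rates cannot be compared directly between classes. Pairs within 1 kb were thus present in every class. Gaps under 250 bp numbered 13, 7, 3 and 22 in the same order. How many pairs had both regions under 400 bp wide is not given here for the other classes. The median gap was 119 bp in control-only pairs, 117 bp in pairs of regions in 1 wt1b list, 459 bp for those in 2 and 294 bp for those in all 3.

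Larger groups were rare. With gaps under 50 kb, 499 control-only regions stood alone, 40 groups held 2 and 3 groups held 3. The tightest group of 3 lay on chromosome 1 from 54391292 to 54404969, a span of 13.7 kb that held 4 regions in all and none with a wt1b peak. Its regions were weak, with mean percentiles of 33.0, 55.2 and 49.1, and the nearest wt1b peak was at least 43.6 kb away. The next lay on chromosome 24 from 2923036 to 2961509, a span of 38.5 kb with 9 regions, again none with a wt1b peak. Its mean percentiles were 26.7, 70.0 and 52.8. The group on chromosome 3 from 13342562 to 13406738 spanned 64.2 kb and was the only one of the 3 that also held regions with a wt1b peak, 2 of 11. It held 2 strong control-only regions, with mean percentiles of 88.7 and 91.8, and a weaker one at 54.0. A region between them was called in all 3 wt1b lists.

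**Figure D5:**
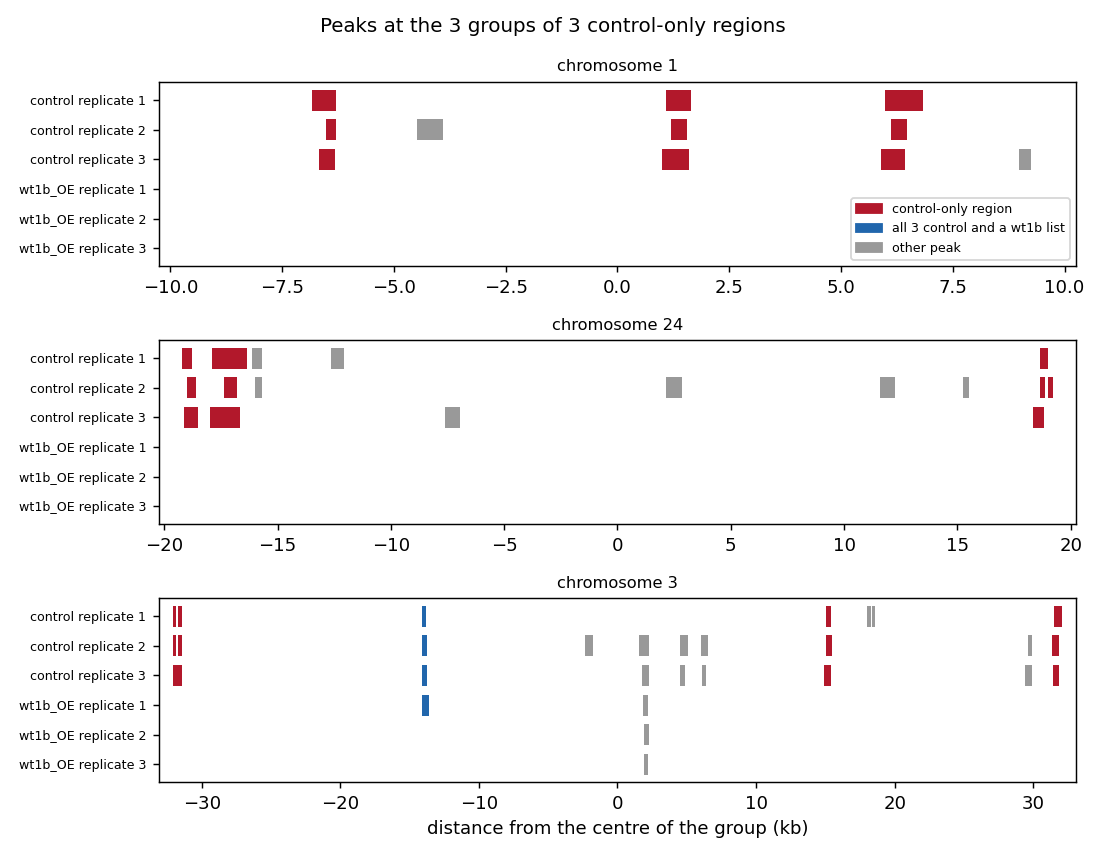
Peaks of the 6 libraries (rows) at the 3 groups of 3 control-only regions, 1 panel per chromosome, against distance from the group's centre in kb (horizontal axis). Red bars are peaks in control-only regions, blue bars peaks of regions in all 3 control lists and at least 1 wt1b list, and grey bars other peaks. The groups on chromosomes 1 and 24 hold no wt1b peak, and the group on chromosome 3 holds wt1b peaks in 2 regions between the red ones.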

How the data were processed

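ATAC-seq peak lists of 3 control and 3 wt1b-overexpressing libraries were analysed, grouped and numbered by their titles. The authors deposited 1 list per library, giving each peak's position and name, its score, and no strand. The submitters' processing notes name Trimmomatic, Bowtie2, SAMtools, Picard, the peak caller Genrich and the build GRCz11 (danRer11), without roles, versions or filters. The deposited score is a whole number limited to 1000 and was used only to rank peaks within a list. Peaks of chromosomes 1 to 25 that shared at least 1 bp were merged into regions (Python with numpy 2.4.6 and pandas 2.3.3, checked against bedtools 2.31.1 and tested on simulated lists). Regions of all 3 control and no wt1b list were kept. They, the strength classes and the comparisons were chosen with earlier results of these data known. Named regions followed a written rule: the 10 strongest by lowest control percentile, the 5 widest, the 3 tightest groups and those at the edge of the definition. Libraries, not regions, were the replicates of exact sign-flip tests. With 3 differences of the same sign p is 0.25 whatever their size, so the p-values do not measure the spread between libraries. That spread may be technical. Start sites, gene lists, GC content and motifs, 4 of 9 planned results, were not analysed here, since the gene table used is of another build. Read depth is unknown.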

Additional observations from a re-analysis of the deposited data

Results flagged for a closer look

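Unplaced scaffolds, which the counts leave out, held 11 regions called in all 3 control lists and no wt1b list. They were singled out because they lie outside the main measurement. They were 14.7% of the 75 scaffold regions shared by the controls, against 17.0% on the chromosomes, and 44 scaffold regions were called in all 6 lists.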

How the results depend on the processing

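The number of control-only regions depended on list length and on the libraries used. It was 47 with all lists cut to the shortest, 128 with control lists cut to the longest wt1b list, 16 with control lists cut to the shortest list, and 382 when linked peaks had to overlap by 50% of both. It was within 1.5 times of 588 with an overlap of 100 bp, peaks within 500 bp merged, peak centres of 200 bp, all sequences, the stronger 50% of lists, and a base common to all controls. Leaving out a library gave 657 to 2376, since fewer libraries must then meet the definition. The share of shared regions without a wt1b peak was 5.01%, 7.29% and 1.70% under the 3 cuts in the same order, 21.1% in the stronger 50% of lists, and 19.0% to 35.4% without a library. The strength difference stayed negative in all alternatives run, from -35.8 to -18.9 without a library, and -27.3 by score times width. The width difference ran from -164.5 to -119 bp without a library. The control-only neighbour share ran from 25.7% to 40.1% without a library. It was 21.4% with neighbours at least 5 kb away and 22.2% with peaks within 500 bp merged, against 24.5% as reported. Without a library, the share in the weakest strength class ran from 49.1% to 77.1%, and in the strongest from 0% to 2.61%. By score times width these shares were 44.8% and 0.289%. No setting could pass 0.05, so the p-values say nothing about stability. The cuts at further lengths, the common base, the ranking within strength classes and the chromosome 4 position were chosen after the data were seen. Between control and wt1b libraries, no paired analysis was possible because a control-only region is defined over all 6 libraries together. It holds no wt1b peak, so that no wt1b library has a value of its own to pair. The strength and width differences were taken between classes of regions within each control library. Alternatives for start sites, GC content and motifs were not run, as no gene positions or genome in these coordinates were used.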
